A study of Homo sapiens with 8 samples.

Results

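Complex I genes were taken as all symbols in the deposited values that begin with NDUF, which gave 47 of 15597 genes. By name and textbook role, 37 of them encode subunits of respiratory complex I, 8 are the assembly factors NDUFAF1 to NDUFAF8, and the other two, NDUFA4 and NDUFA4L2, carry the older family name. Of the 37 subunits, 7 belong to the catalytic core and 30 are accessory. The RNA came from SUDHL-4, a long-established human cell line of the germinal-centre form of diffuse large B-cell lymphoma. Cells overexpressing FDX1 (FDX1-OE) and control cells of wild-type genotype each received 5 nM elesclomol (ES) or its vehicle DMSO for 48 h. Thus 4 groups of 2 libraries each were compared: FDX1-OE in ES, FDX1-OE in DMSO, control in ES and control in DMSO. What vector or promoter drives FDX1, what vector the control cells carry, and whether the FDX1-OE line is a clone or a pool were not stated in the sources read.

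Complex I, the NADH:ubiquinone oxidoreductase, is the entry point of electrons from NADH into the respiratory chain and pumps protons across the inner mitochondrial membrane. Its matrix arm holds a flavin and a chain of iron-sulfur clusters, and its membrane arm holds the proton channels, whose core subunits are encoded by the mitochondrial genome and are not analysed here. Assembly factors bind intermediates of the enzyme, modify or insert subunits, and leave before the complex is complete. The product of FDX1, ferredoxin 1, is an electron carrier of the matrix that takes part in lipoylation of proteins, and elesclomol is a copper ionophore.

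The library totals lay between 33435438 and 35883528 reads, and the NDUF gene with the fewest reads still had 383 in its lowest library, so no member was near the limit of detection. FDX1 had 82.51 and 84.84 FPKM in FDX1-OE cells in ES, 72.41 and 69.87 FPKM in FDX1-OE cells in DMSO, 21.32 and 21.35 FPKM in control cells in ES, and 25.58 and 22.20 FPKM in control cells in DMSO. All 8 markers of germinal-centre B cells were at 1 FPKM or more in every library. Of 8 myeloid markers 6 were under 1 FPKM in every library, while the summed level of the 8, carried by CD68 and FCER1G, was 36.8 to 39.8 FPKM in FDX1-OE cells in ES, 7.07 to 8.18 FPKM in FDX1-OE cells in DMSO, 12.3 to 16.7 FPKM in control cells in ES and 4.08 to 4.30 FPKM in control cells in DMSO. Of the T and NK cell markers 6 were measured, and all but CD3E were under 1 FPKM throughout; their sum was 7.73 to 8.57 FPKM in FDX1-OE cells in ES, 5.28 to 7.25 FPKM in FDX1-OE cells in DMSO, 7.16 to 7.48 FPKM in control cells in ES and 4.11 to 5.07 FPKM in control cells in DMSO. Of 8 epithelial and stromal markers 7 were under 1 FPKM throughout. The part of these markers in the results was not tested.

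The NDUF genes were abundant transcripts. The mean level over the 8 libraries, in FPKM and hence per length, had a median of 56.11 over the 47 members and of 11.42 over the 9805 genes tested. NDUFA12, an accessory subunit of the matrix arm, and NDUFA13, also known as GRIM-19, were highest at 294 and 282 FPKM, and 14 members were at 100 FPKM or more. NDUFV3, an accessory subunit beside the flavin-binding part, was lowest at 5.74 FPKM, and 6 members were under 10 FPKM. Among the core subunits NDUFV1, which binds the flavin and oxidises NADH, was highest and NDUFS1, which carries several iron-sulfur clusters, was lowest. Assembly factors lay below subunits: in each library the median subunit was at 60.7 to 77.5 FPKM and the median NDUFAF gene at 10.4 to 13.0 FPKM. Levels across the 47 genes ran against the gene length implied by the FPKM steps, which was 317 bases for NDUFB1 and 11774 bases for NDUFS1 (Spearman's rho -0.75 across genes of the same libraries, a description only).

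**Figure D1:**
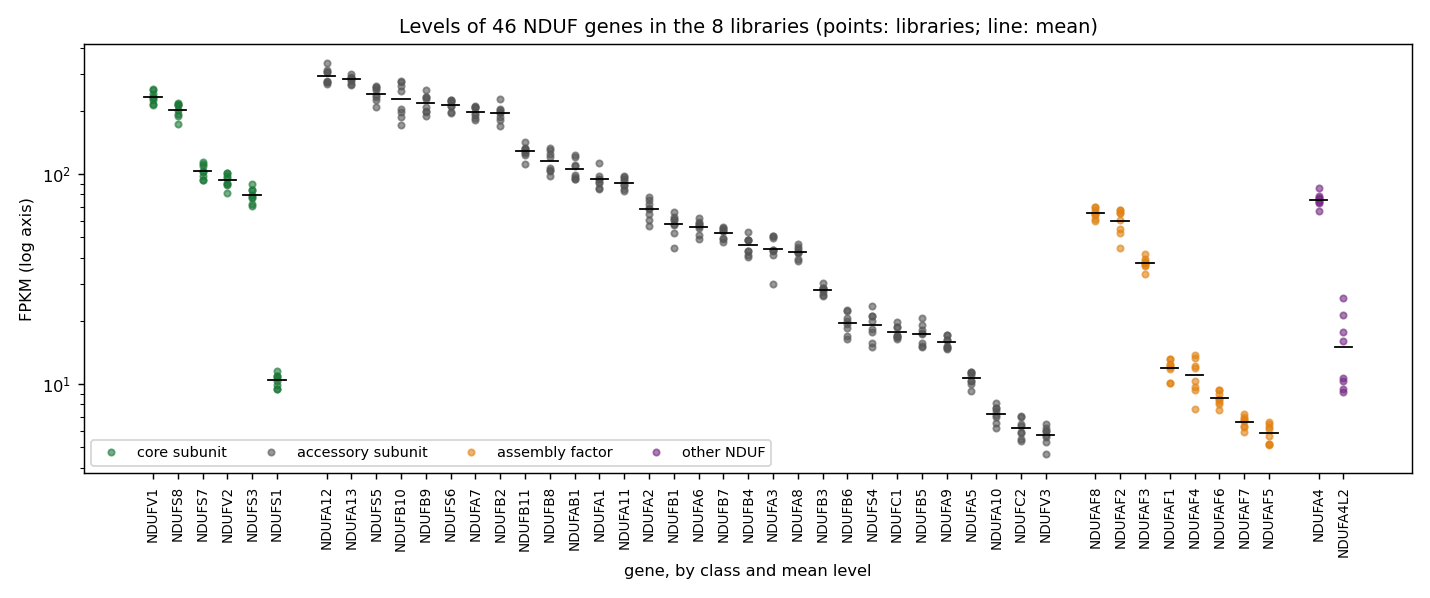
Levels of 46 NDUF genes in the 8 libraries, in FPKM on a log axis; points are libraries, lines are means, and genes are grouped by class and ordered by mean. Subunits span the range between NDUFA12 at 294 FPKM and NDUFV3 at 5.74 FPKM, and 5 of the 8 assembly factors lie below 15 FPKM.

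In FDX1-OE cells ES moved NDUF genes in both directions and by small amounts. Relative to DMSO, 6 members were higher and 11 were lower, where a call is an adjusted p below 0.05 (limma on log2(FPKM + 1), n = 2 libraries per group, Benjamini-Hochberg adjustment over 9805 genes). Of the members 12.8% were higher and 23.4% lower, beside 37.0% and 19.2% of all genes tested, so the members' share of higher calls lay below the background and their share of lower calls near it. The highest change was 1.18 on the log2 scale, of NDUFA4L2, and the lowest was -0.54, of NDUFB10; apart from NDUFA4L2 every member lay between -0.54 and 0.43. The median log2 change was -0.038 over the members and 0.094 over all genes tested. In bulk libraries, fewer cells that express a gene and less of its RNA per cell cannot be told apart.

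The split depended on scaling and on single libraries. With RLE scaling, which sets the typical gene to no change and moved the median of all genes by -0.088, 3 members (6.4%) were higher and 20 (42.6%) lower, against a background of 27.6% higher and 27.6% lower. Counts of calls with 1 library left out moved too, but no share over all genes is given for those fits, so they have no background here. The members' median was -0.017 without FDX1-OE DMSO replicate 1, -0.074 without FDX1-OE DMSO replicate 2, -0.011 without FDX1-OE ES replicate 1 and -0.071 without FDX1-OE ES replicate 2. Of the 17 calls, those that passed under all 13 alternatives run included NDUFA4L2 and NDUFS4 as higher and NDUFB10, NDUFAF4, NDUFB9 and NDUFB8 as lower.

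In control cells the calls were mostly falls. ES gave 2 members (4.3%) higher and 14 (29.8%) lower, beside 25.5% of all genes higher and 12.9% lower. The median log2 change was -0.076 over the members and 0.063 over all genes tested. RLE scaling gave 1 member higher and 18 (38.3%) lower, against 18.9% of all genes higher and 19.3% lower. The members' median was -0.045 without control DMSO replicate 1 and -0.119 without control DMSO replicate 2. It was -0.093 without control ES replicate 1 and -0.055 without control ES replicate 2. Calls that passed under all 13 alternatives were 1 higher, NDUFA4L2, and 5 lower, NDUFB8, NDUFAB1, NDUFB10, NDUFB4 and NDUFB9.

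**Figure D2:**
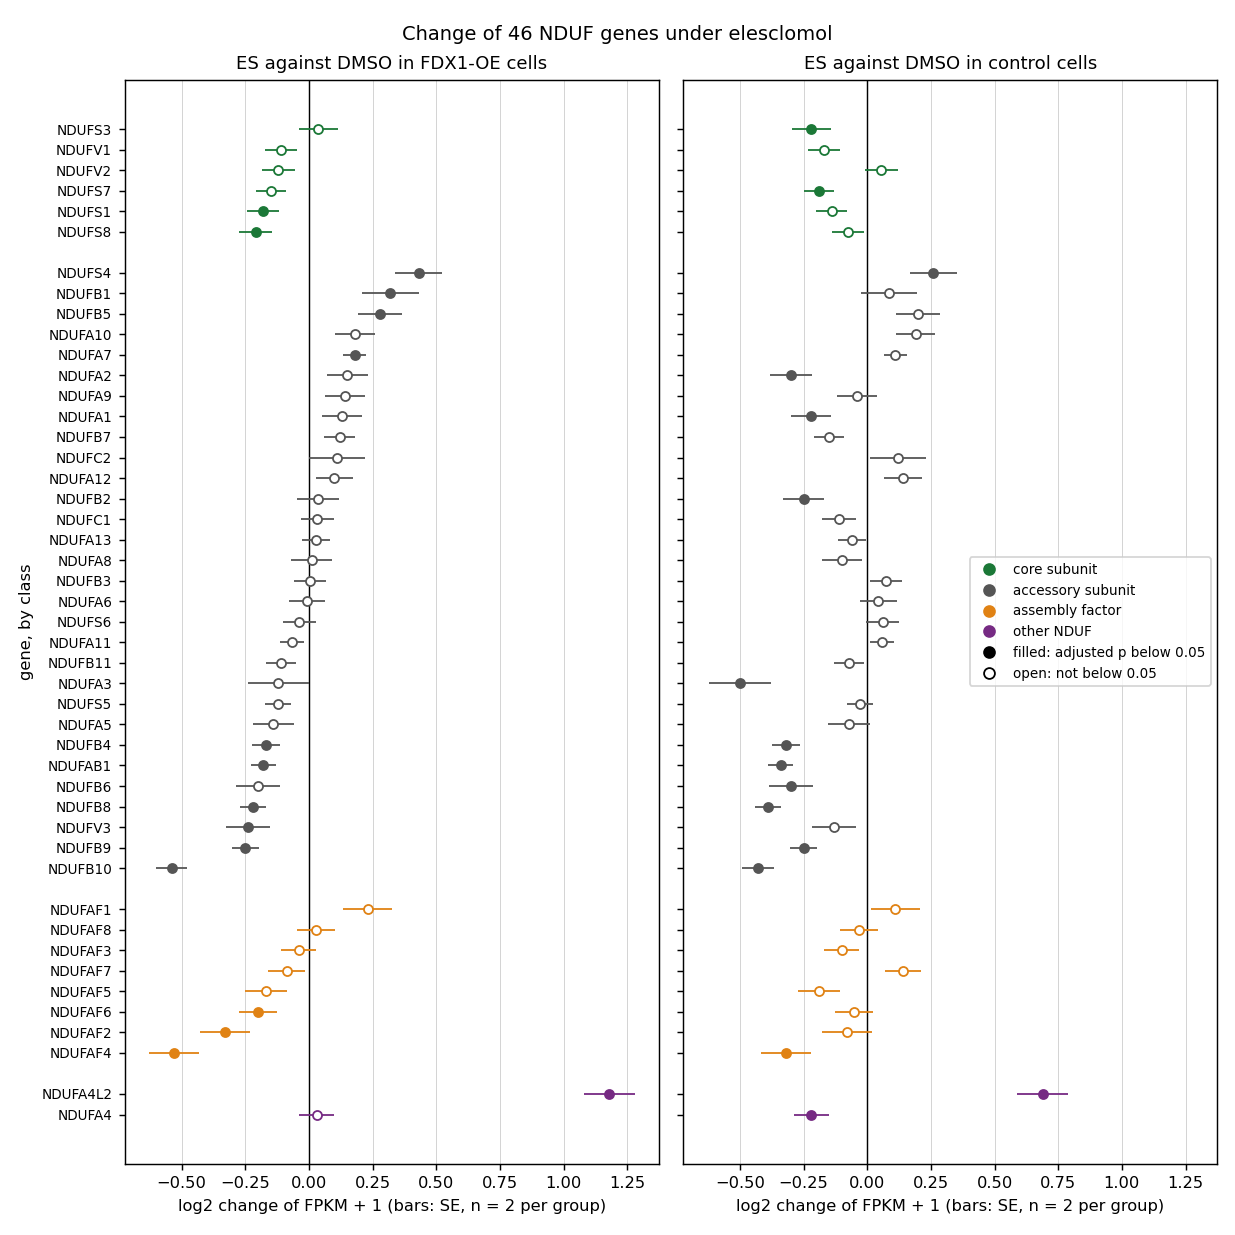
Log2 change of FPKM + 1 under ES for 46 NDUF genes in FDX1-OE cells (left) and control cells (right), on a shared horizontal axis, with SE bars (n = 2 libraries per group); filled points have an adjusted p below 0.05. NDUFA4L2 stands apart at 1.18 and 0.69, and NDUFB10 lies at -0.54 and -0.43.

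The 2 responses share no library, so they can be set side by side. Of the 47 members, 31 moved in the same direction in FDX1-OE and in control cells, 20 of them down and 11 up (Pearson's r 0.75 and Spearman's rho 0.58 across genes, 0.62 and 0.56 without NDUFA4L2; genes are not independent replicates). Called lower in both were NDUFB10, NDUFB8, NDUFB9, NDUFB4, NDUFAB1 and NDUFAF4, and called higher in both were NDUFA4L2 and NDUFS4. A further 9 members were called in FDX1-OE cells alone and 8 in control cells alone. However, the difference between the responses, tested by the interaction, was called for 0 members. Agreement in direction and shared calls were not counted over all genes tested, so they have no background here. Whether members agree more than other genes was not tested.

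Of the 7 core subunits 2 (28.6%) were called lower with ES in each genotype. Of all genes tested 19.2% were lower in FDX1-OE cells and 12.9% in control cells. The core subunits called lower were NDUFS8 and NDUFS1 in FDX1-OE cells and NDUFS3 and NDUFS7 in control cells. NDUFS8 carries iron-sulfur clusters that lead to the quinone site. Its levels were 173.76 and 189.81 FPKM in FDX1-OE cells in ES and 219.20 and 202.87 FPKM in FDX1-OE cells in DMSO. In control cells they were 212.93 and 193.78 FPKM in ES and 214.49 and 213.83 FPKM in DMSO. Neither pair of groups overlapped, and the fall passed in FDX1-OE cells (log2 change -0.21, SE 0.064, adjusted p = 0.0147) but not in control cells (-0.076, adjusted p = 0.369). NDUFS8 did not pass in FDX1-OE cells when FDX1-OE DMSO replicate 1 (adjusted p = 0.126) or ES replicate 1 (0.114) was left out.

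NDUFS1 had 9.43 FPKM in each FDX1-OE library in ES, against 10.94 and 10.66 FPKM in FDX1-OE cells in DMSO, and 10.32 and 9.93 FPKM in control cells in ES, against 11.56 and 10.95 FPKM in control cells in DMSO. ES libraries were the lower ones in both genotypes, with no overlap. The change was -0.18 (SE 0.062, adjusted p = 0.0311) in FDX1-OE cells and -0.14 (adjusted p = 0.0991) in control cells. In FDX1-OE cells NDUFS1 did not pass with any 1 of the 4 libraries left out: the adjusted p was 0.138 and 0.0778 without FDX1-OE DMSO replicates 1 and 2, and 0.0924 and 0.0933 without FDX1-OE ES replicates 1 and 2.

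NDUFS3 and NDUFS7, both of the quinone-reducing part, were called lower in control cells alone. NDUFS3, which joins an early assembly intermediate, had 78.02 and 79.67 FPKM in FDX1-OE cells in ES, 84.10 and 70.15 FPKM in FDX1-OE cells in DMSO, 76.64 and 71.96 FPKM in control cells in ES and 84.37 and 89.21 FPKM in control cells in DMSO. The FDX1-OE groups overlapped and the control groups did not (control log2 change -0.22, SE 0.077, adjusted p = 0.0431). NDUFS7, which carries the last cluster before the quinone, had 93.64 and 98.14 FPKM in FDX1-OE cells in ES, 109.56 and 102.77 FPKM in FDX1-OE cells in DMSO, 103.78 and 93.92 FPKM in control cells in ES and 111.73 and 113.88 FPKM in control cells in DMSO. Its groups did not overlap in either genotype, and the change was -0.15 (adjusted p = 0.0605) in FDX1-OE cells and -0.19 (SE 0.06, adjusted p = 0.0289) in control cells. Without control DMSO replicate 1 the adjusted p was 0.0785 for NDUFS3 and 0.0811 for NDUFS7, without control DMSO replicate 2 it was 0.194 and 0.118, and without control ES replicate 2 it was 0.187 and 0.196. Without control ES replicate 1 NDUFS3 had an adjusted p of 0.0625, and without the mean trend the values were 0.073 for NDUFS3 and 0.0585 for NDUFS7. RLE scaling and voom called NDUFS7 lower in FDX1-OE cells and NDUFS1 lower in control cells as well.

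The flavin-binding subunit NDUFV1 did not pass under ES, and its call depended on the setting. It had 232.95 and 215.54 FPKM in FDX1-OE cells in ES, 254.23 and 230.27 FPKM in FDX1-OE cells in DMSO, 226.38 and 212.29 FPKM in control cells in ES and 252.23 and 241.67 FPKM in control cells in DMSO. Its groups overlapped in FDX1-OE cells (log2 change -0.11, adjusted p = 0.157) and did not in control cells (-0.17, adjusted p = 0.0527). NDUFV2, its iron-sulfur partner in the NADH-oxidising part, had 81.69 and 88.23 FPKM in FDX1-OE cells in ES, 89.54 and 95.31 FPKM in FDX1-OE cells in DMSO, 97.68 and 101.68 FPKM in control cells in ES and 100.87 and 91.15 FPKM in control cells in DMSO. Its log2 change under ES was -0.12 (adjusted p = 0.133) in FDX1-OE cells and 0.055 (adjusted p = 0.521) in control cells. With RLE scaling and with voom NDUFV1 was called lower in both genotypes and NDUFV2 in FDX1-OE cells. NDUFV1 was also called lower in control cells at a mean of at least 5 FPKM, with the replicate block and in the libraries of that comparison alone.

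The accessory subunits were counted by the letter in their names; the NDUFB genes encode subunits of the distal membrane arm. Of all genes tested, 19.2% were lower and 37.0% higher in FDX1-OE cells, and 12.9% were lower and 25.5% higher in control cells. Of 11 NDUFB genes, 4 were lower and 2 higher in FDX1-OE cells, and 6 were lower and 0 higher in control cells. Their median log2 change was -0.11 in FDX1-OE cells and -0.25 in control cells. Of 12 NDUFA accessory subunits, 0 were lower and 1 higher in FDX1-OE cells and 3 lower and 0 higher in control cells, with medians of 0.066 and -0.049. Of the 7 remaining accessory subunits, 2 were lower and 1 higher in FDX1-OE cells and 1 was lower and 1 higher in control cells. With RLE scaling 6 NDUFB genes (54.5%) were lower and 0 higher in FDX1-OE cells, beside 27.6% of all genes in each direction, and 7 (63.6%) were lower and 0 higher in control cells, beside 19.3% lower and 18.9% higher. The NDUFA accessory subunits then had 2 lower (16.7%) and 0 higher in FDX1-OE cells and 3 of 12 lower and 0 higher in control cells. These shares were not tested against each other.

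NDUFB10, which has disulfide-bonded cysteines and faces the intermembrane space, had the largest change among subunits in FDX1-OE cells, and in control cells only NDUFA3 had a larger one. It had 187.17 and 172.13 FPKM in FDX1-OE cells in ES, against 274.37 and 248.88 FPKM in FDX1-OE cells in DMSO, and 198.05 and 204.15 FPKM in control cells in ES, against 263.49 and 277.44 FPKM in control cells in DMSO. All 4 ES libraries lay below all 4 DMSO libraries. The ES level was 0.688 times the DMSO level in FDX1-OE cells (log2 change -0.54, SE 0.062, adjusted p = 4.47e-05) and 0.745 times in control cells (-0.43, SE 0.062, adjusted p = 0.00058), on the FPKM + 1 scale that holds for all folds given here.

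NDUFB8, a membrane subunit often used as a marker of the assembled complex, had 103.97 and 106.79 FPKM in FDX1-OE cells in ES, against 124.67 and 120.77 FPKM in FDX1-OE cells in DMSO, and 104.08 and 97.49 FPKM in control cells in ES, against 133.11 and 130.90 FPKM in control cells in DMSO. The ES libraries of both genotypes lay below every DMSO library. The change was -0.22 (SE 0.051, adjusted p = 0.00416) in FDX1-OE cells and -0.39 (SE 0.051, adjusted p = 0.000341) in control cells. NDUFB9, a matrix-side subunit of the LYR-motif family, fell by a like amount in each genotype, to 0.842 times the DMSO level in FDX1-OE cells (log2 change -0.25, adjusted p = 0.00285) and 0.839 times in control cells (-0.25, adjusted p = 0.00459). NDUFB4, a distal-arm subunit, was at 42.90 and 43.03 FPKM in FDX1-OE cells in ES, 48.52 and 48.63 FPKM in FDX1-OE cells in DMSO, 40.24 and 40.98 FPKM in control cells in ES and 53.10 and 48.72 FPKM in control cells in DMSO. Here too no ES library reached a DMSO library. NDUFB4 passed in control cells (-0.32, adjusted p = 0.00151) under every alternative. In FDX1-OE cells (-0.17, adjusted p = 0.021) its call was lost without any 1 of the 4 libraries, with an adjusted p of 0.0815 and 0.0847 without FDX1-OE DMSO replicates 1 and 2, and of 0.0715 and 0.0656 without FDX1-OE ES replicates 1 and 2. NDUFB4 has 12 pseudogenes named after it in RefSeq, NDUFB8 and NDUFB9 have 3 each and NDUFB10 has 2, and the sources read do not say how shared reads were counted.

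The stretches upstream of NDUFB10, NDUFB8 and NDUFB4 are shown because these genes fell together under ES, and that of NDUFA4L2 because it moved the other way. Each is the 250 bases before the RefSeq start site in GRCh38.p14, 5′ to 3′ on the gene's own strand; where RefSeq gives more than 1 start, the one farthest downstream was taken. Capitals mark the letters searched for the factor NRF1, a regulator of nuclear genes for mitochondrial proteins.
NDUFB10, chr16:1959288-1959537, plus strand: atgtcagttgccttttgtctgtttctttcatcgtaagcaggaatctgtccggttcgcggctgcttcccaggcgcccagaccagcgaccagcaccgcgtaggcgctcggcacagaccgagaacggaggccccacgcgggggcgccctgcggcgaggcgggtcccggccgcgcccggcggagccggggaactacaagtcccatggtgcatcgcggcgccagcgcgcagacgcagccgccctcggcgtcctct
NDUFB8, chr10:100529872-100530121, minus strand: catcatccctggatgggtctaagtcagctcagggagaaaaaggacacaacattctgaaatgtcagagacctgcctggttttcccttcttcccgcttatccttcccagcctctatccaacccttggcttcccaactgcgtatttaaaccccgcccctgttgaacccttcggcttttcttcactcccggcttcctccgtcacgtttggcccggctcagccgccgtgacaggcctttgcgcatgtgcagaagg
NDUFB4, chr3:120596086-120596335, plus strand: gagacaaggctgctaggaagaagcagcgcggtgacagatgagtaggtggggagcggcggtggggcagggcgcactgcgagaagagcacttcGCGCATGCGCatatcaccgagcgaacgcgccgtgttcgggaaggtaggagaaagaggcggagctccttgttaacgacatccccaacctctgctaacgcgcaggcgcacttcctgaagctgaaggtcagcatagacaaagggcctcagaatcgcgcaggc
NDUFA4L2, named COXFA4L2 in RefSeq, chr12:57240745-57240994, minus strand: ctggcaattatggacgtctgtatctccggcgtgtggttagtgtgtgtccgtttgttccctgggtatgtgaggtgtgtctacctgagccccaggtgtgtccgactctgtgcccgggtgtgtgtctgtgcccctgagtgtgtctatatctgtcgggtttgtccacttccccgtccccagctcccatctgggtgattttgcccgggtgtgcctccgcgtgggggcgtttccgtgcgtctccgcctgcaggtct
The NRF1 letters GCATGCGC, on either strand, stand in the NDUFB4 window as a palindrome-like run that holds overlapping matches 150 and 152 bases before the start, and are not in the windows printed for the other genes. Over the 54 windows of the 41 members matched, 5 held them (9.3%), those of NDUFA5, NDUFA6, NDUFB4, NDUFS6 and NDUFS7, as did 2.63% of 35116 windows of all genes. The ETS letters CCGGAAGT stood in 2 member windows (3.7%, NDUFA13 and NDUFS1) and in 3.42% of all. The cyclic AMP element TGACGTCA stood in 2 (3.7%, NDUFA10 and NDUFB2) and in 1.65% of all, and the YY1 letters AAGATGGC in 0 and in 1.36% of all. Of the genes with NRF1 letters, NDUFB4 and NDUFS7 were called lower with ES in control cells and NDUFA5, NDUFA6 and NDUFS6 were not called in either genotype. A match is a description of letters and not of a bound site.

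NDUFAB1, the mitochondrial acyl carrier protein, is both a complex I subunit and the carrier on which the precursor of lipoate is built. It had 94.40 and 99.25 FPKM in FDX1-OE cells in ES, 109.20 and 110.04 FPKM in FDX1-OE cells in DMSO, 94.89 and 97.18 FPKM in control cells in ES and 123.80 and 120.20 FPKM in control cells in DMSO. The 4 ES libraries lay close together and below all DMSO libraries. Its change was -0.18 (SE 0.049, adjusted p = 0.0101) in FDX1-OE cells and -0.34 (SE 0.049, adjusted p = 0.000547) in control cells. Leaving out FDX1-OE DMSO replicate 2 (adjusted p = 0.06) or ES replicate 1 (0.0721) ended the FDX1-OE call.

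**Figure D3:**
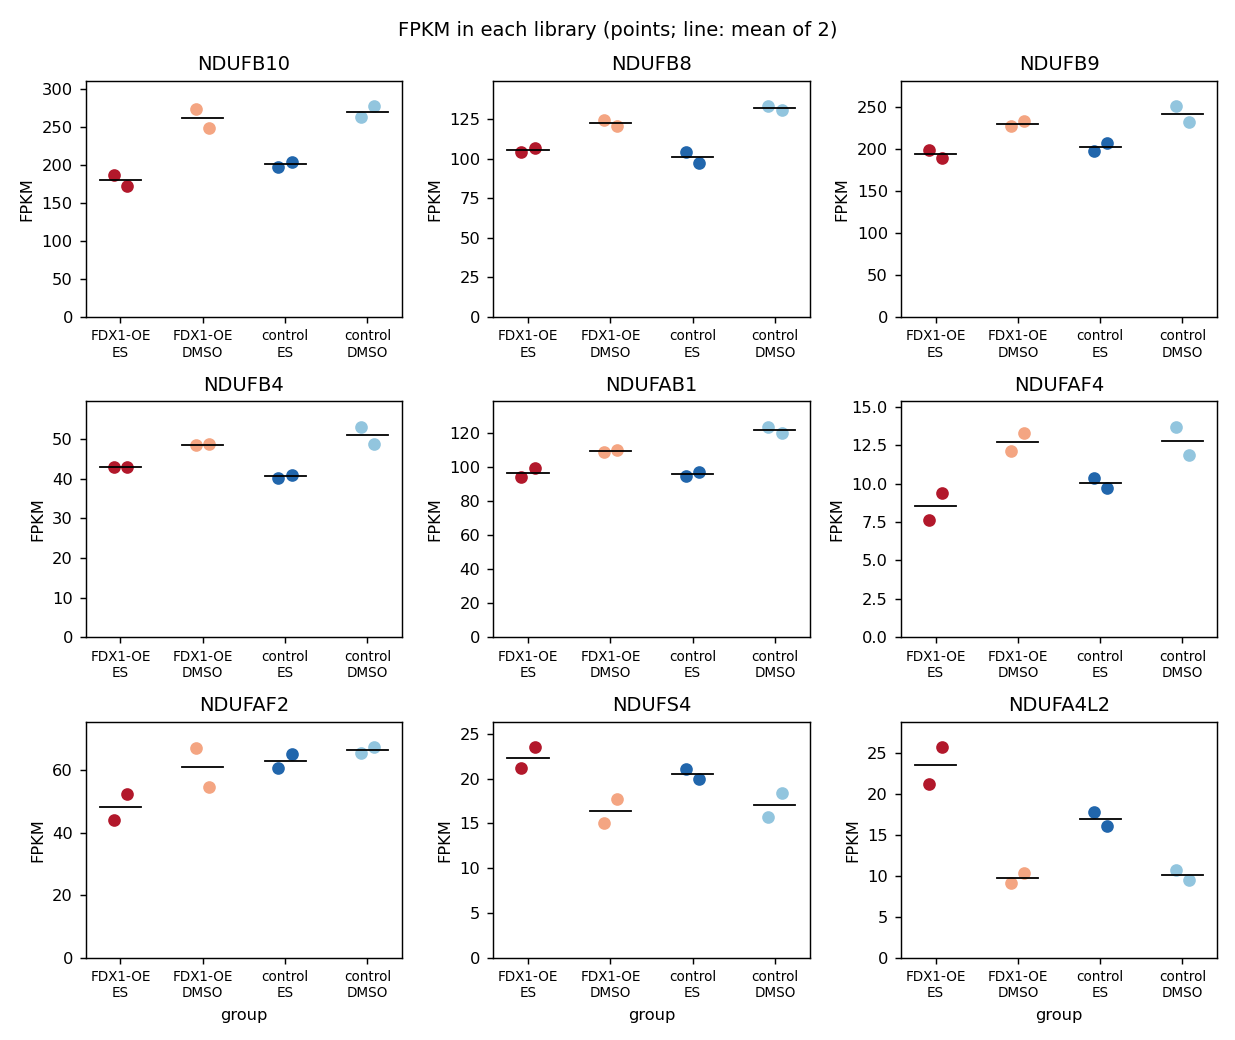
FPKM in each library for 9 NDUF genes, by group (FDX1-OE in ES, FDX1-OE in DMSO, control in ES, control in DMSO; points are libraries, lines are means of 2; each axis starts at 0). NDUFB10, NDUFB8, NDUFB9, NDUFB4, NDUFAB1 and NDUFAF4 are lower in ES in both genotypes, NDUFS4 and NDUFA4L2 are higher, and NDUFAF2 is below the other 6 libraries in FDX1-OE cells in ES.

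Rises among subunits were fewer. NDUFS4, an accessory subunit that helps to attach the NADH-oxidising part and whose loss causes Leigh syndrome, had 21.20 and 23.52 FPKM in FDX1-OE cells in ES, 15.06 and 17.77 FPKM in FDX1-OE cells in DMSO, 21.10 and 19.95 FPKM in control cells in ES and 15.66 and 18.34 FPKM in control cells in DMSO. All ES libraries were above all DMSO libraries. NDUFS4 was 1.34 times higher in FDX1-OE cells (log2 change 0.43, SE 0.093, adjusted p = 0.00282) and 1.20 times in control cells (0.26, SE 0.093, adjusted p = 0.0471). In control cells RLE scaling (adjusted p = 0.114), voom (0.179) and the fit without a mean trend (0.0663) ended the call, as did leaving out control DMSO replicate 1 (0.302), ES replicate 1 (0.181) or ES replicate 2 (0.0804).

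NDUFB1, a small subunit of the distal membrane arm, had 60.77 and 65.92 FPKM in FDX1-OE cells in ES, 44.60 and 57.55 FPKM in FDX1-OE cells in DMSO, 62.51 and 56.90 FPKM in control cells in ES and 60.12 and 52.57 FPKM in control cells in DMSO. FDX1-OE DMSO replicate 1 was the lowest library of all, and the control groups overlapped. The change passed in FDX1-OE cells (0.32, SE 0.11, adjusted p = 0.0278) and not in control cells (0.084, adjusted p = 0.562). With FDX1-OE DMSO replicate 1 left out the adjusted p was 0.274, and with FDX1-OE ES replicate 2 left out it was 0.139. NDUFB5, also of the membrane arm (0.28, adjusted p = 0.0185), and NDUFA7, of the matrix arm (0.18, adjusted p = 0.00534), were also called higher in FDX1-OE cells. Without FDX1-OE DMSO replicate 1 the adjusted p was 0.0811 for NDUFB5 and 0.05 for NDUFA7, and without FDX1-OE ES replicate 2 it was 0.164 for NDUFB5. With RLE scaling NDUFB1 (adjusted p = 0.102), NDUFB5 (0.0928) and NDUFA7 (0.138) all lost their calls.

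NDUFA3, a small membrane-arm subunit, had the lowest log2 change among subunits in control cells, a place that rested on 1 library. NDUFA3 had 43.48 and 42.85 FPKM in FDX1-OE cells in ES, 50.52 and 43.69 FPKM in FDX1-OE cells in DMSO, 41.38 and 29.79 FPKM in control cells in ES and 50.58 and 49.45 FPKM in control cells in DMSO. Control ES replicate 2 was far below the other 7 libraries, and no ES library reached a DMSO library of its own genotype. The change was -0.50 (SE 0.12, adjusted p = 0.00856) in control cells and -0.12 (adjusted p = 0.413) in FDX1-OE cells. Without control ES replicate 2 the change was -0.27 (adjusted p = 0.0391), smaller than that of NDUFB10 with the same library left out (-0.45). Without control DMSO replicate 1 the adjusted p was 0.0503. NDUFA3 overlaps the gene TFPT and has 6 pseudogenes named after it.

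The other subunits called in 1 genotype changed by less. In control cells NDUFA2, a matrix-arm subunit with a thioredoxin-like fold (-0.30, adjusted p = 0.0144), NDUFB6 (-0.30, adjusted p = 0.0219) and NDUFB2 (-0.25, adjusted p = 0.032), both of the distal membrane arm, and NDUFA1, which is needed to build the membrane arm (-0.22, adjusted p = 0.0422), were lower. Without control DMSO replicate 1 their adjusted p was 0.101, 0.14, 0.214 and 0.33, in the same order, and without control ES replicate 2 it was 0.105, 0.144, 0.224 and 0.174. NDUFA1 also had an adjusted p of 0.069 without control ES replicate 1. In FDX1-OE cells NDUFV3 was lower (-0.24, adjusted p = 0.0359), but not when FDX1-OE DMSO replicate 1 (adjusted p = 0.0515), DMSO replicate 2 (0.178) or ES replicate 1 (0.277) was left out. The other 17 subunits were called in neither genotype. Among them RLE scaling and voom called NDUFA5, NDUFA11, NDUFB11 and NDUFS5 lower in FDX1-OE cells and NDUFB7 lower in control cells.

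Assembly factors gave 0 rises in either genotype, beside 37.0% of all genes higher in FDX1-OE cells and 25.5% in control cells. Of the 8 NDUFAF genes, 3 (37.5%) were lower in FDX1-OE cells, beside 19.2% of all genes, and 1 (12.5%) in control cells, beside 12.9% of all genes. With RLE scaling 4 of 8 were lower in FDX1-OE cells, beside 27.6% of all genes, and 2 of 8 in control cells, beside 19.3%. NDUFAF4, which acts early on the quinone-reducing part together with NDUFAF3, had 7.62 and 9.41 FPKM in FDX1-OE cells in ES, 12.14 and 13.31 FPKM in FDX1-OE cells in DMSO, 10.36 and 9.73 FPKM in control cells in ES and 13.71 and 11.88 FPKM in control cells in DMSO. The 4 ES libraries were the 4 lowest. NDUFAF4 was at 0.691 times its DMSO level in FDX1-OE cells (log2 change -0.53, SE 0.098, adjusted p = 0.000999), under every alternative, and at 0.803 times in control cells (-0.32, SE 0.098, adjusted p = 0.0267). Leaving out control DMSO replicate 1 (adjusted p = 0.186), ES replicate 1 (0.0556) or ES replicate 2 (0.12) ended the control call.

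NDUFAF2, a paralog of NDUFA12 that holds its place late in assembly, had 44.22 and 52.49 FPKM in FDX1-OE cells in ES, 67.12 and 54.75 FPKM in FDX1-OE cells in DMSO, 60.67 and 65.10 FPKM in control cells in ES and 65.46 and 67.42 FPKM in control cells in DMSO. Both FDX1-OE libraries in ES were below the other 6. Its change was -0.33 (SE 0.097, adjusted p = 0.0152) in FDX1-OE cells and -0.079 (adjusted p = 0.545) in control cells. Leaving out FDX1-OE DMSO replicate 1 (adjusted p = 0.152) or ES replicate 1 (0.135) ended the FDX1-OE call. NDUFAF6, needed for early steps of the membrane arm, had 7.53 and 8.46 FPKM in FDX1-OE cells in ES, 9.40 and 9.32 FPKM in FDX1-OE cells in DMSO, 8.52 and 7.99 FPKM in control cells in ES and 9.01 and 8.18 FPKM in control cells in DMSO. Only the FDX1-OE groups were apart, and its change there was -0.20 (SE 0.076, adjusted p = 0.0402). NDUFAF6 lost that call when FDX1-OE DMSO replicate 1 (adjusted p = 0.128), DMSO replicate 2 (0.107) or ES replicate 1 (0.25) was left out, and its span overlaps CCNE2 and TP53INP1.

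The other 5 assembly factors did not pass under ES, though alternatives called NDUFAF5 and NDUFAF1. RLE scaling called NDUFAF5 lower in both genotypes, as did leaving out ES replicate 2 in control cells. NDUFAF1 was called higher in FDX1-OE cells in the libraries of that comparison alone and without FDX1-OE DMSO replicate 2. NDUFAF1, of the complex that builds the membrane arm, had 13.10 and 13.18 FPKM in FDX1-OE cells in ES, 10.16 and 12.09 FPKM in FDX1-OE cells in DMSO, 11.79 and 12.50 FPKM in control cells in ES and 12.32 and 10.07 FPKM in control cells in DMSO, a change of 0.23 (adjusted p = 0.0684) in FDX1-OE cells. NDUFAF3 had 37.60 and 39.24 FPKM in FDX1-OE cells in ES, 41.57 and 37.61 FPKM in FDX1-OE cells in DMSO, 36.88 and 33.47 FPKM in control cells in ES and 38.61 and 36.67 FPKM in control cells in DMSO. The groups of NDUFAF3 overlapped in both genotypes, and those of NDUFAF1 overlapped in control cells. NDUFAF5, which hydroxylates an arginine of NDUFS7, had 5.10 and 5.19 FPKM in FDX1-OE cells in ES, 6.25 and 5.63 FPKM in FDX1-OE cells in DMSO, 5.19 and 6.08 FPKM in control cells in ES and 6.62 and 6.47 FPKM in control cells in DMSO. It was lower in each ES library than in the DMSO libraries of its genotype, at -0.17 (adjusted p = 0.0948) in FDX1-OE cells and -0.19 (adjusted p = 0.0927) in control cells.

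NDUFAF7, a mitochondrial arginine methyltransferase, had 6.21 and 6.72 FPKM in FDX1-OE cells in ES, 7.17 and 6.69 FPKM in FDX1-OE cells in DMSO, 6.80 and 6.94 FPKM in control cells in ES and 5.92 and 6.32 FPKM in control cells in DMSO. The FDX1-OE groups overlapped and the control groups did not. Its values were -0.088 (adjusted p = 0.318) in FDX1-OE cells and 0.14 (adjusted p = 0.136) in control cells. NDUFAF8, which stabilises NDUFAF5, had 60.02 and 69.64 FPKM in FDX1-OE cells in ES, 61.35 and 65.57 FPKM in FDX1-OE cells in DMSO, 67.09 and 63.99 FPKM in control cells in ES and 69.76 and 64.51 FPKM in control cells in DMSO. Its groups overlapped in both genotypes, with values of 0.027 and -0.033.

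Subunits can be set beside NDUFAF genes by their medians, which were not tested. In FDX1-OE cells the median log2 change was -0.008 for the 37 subunits and -0.13 for the 8 NDUFAF genes. Over all genes tested it was 0.094. The difference between the classes was 0.123 (SD 0.029 over replicate pairs, which share libraries). Of the subunits 8 of 37 (21.6%) and of the NDUFAF genes 3 of 8 (37.5%) were lower, beside 19.2% of all genes. In control cells the medians were -0.076 and -0.065, beside 0.063 over all genes. The difference between the classes there was -0.011 (SD 0.037). In control cells 12 of 37 subunits (32.4%) and 1 of 8 NDUFAF genes (12.5%) were lower, beside 12.9% of all genes. The difference in FDX1-OE cells was 0.09 to 0.11 with 1 library left out. Summed over subunits, the level was 3473.7 and 3559.7 FPKM in FDX1-OE cells in ES, against 3722.8 and 3620.6 FPKM in FDX1-OE cells in DMSO, and 3660.3 and 3612.5 FPKM in control cells in ES, against 3986.5 and 3849.3 FPKM in control cells in DMSO. Summed over NDUFAF genes it was 181.4 and 204.3 FPKM in FDX1-OE cells in ES, against 215.2 and 205.0 FPKM in FDX1-OE cells in DMSO, and 207.3 and 205.8 FPKM in control cells in ES, against 221.4 and 211.5 FPKM in control cells in DMSO. Each sum was lower in both ES libraries than in both DMSO libraries of the same genotype. The median subunit was not lower in FDX1-OE cells, at 74.9 and 68.5 FPKM in ES against 68.9 and 60.7 FPKM in DMSO. In control cells it was 64.3 and 62.0 FPKM in ES against 77.5 and 71.8 FPKM in DMSO. The sums and these medians were not tested.

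Assembly factors of complex I that carry other names moved both ways. Of 12 listed, 11 could be tested. With ES in FDX1-OE cells 1 (9.1%) was higher and 3 (27.3%) lower, beside 37.0% and 19.2% of all genes. In control cells 0 were higher and 2 (18.2%) lower, beside 25.5% and 12.9% of all genes. With RLE scaling 27.3% were lower in each genotype, beside 27.6% of all genes in FDX1-OE cells and 19.3% in control cells. LYRM2 rose in FDX1-OE cells (log2 change 0.49, adjusted p = 0.00318). TMEM186 (-0.53, adjusted p = 0.000177), TMEM126B (-0.33, adjusted p = 0.00167), both of the same membrane-arm assembly complex as NDUFAF1, and TMEM70 (-0.27, adjusted p = 0.00732), which also serves ATP synthase, fell there. In control cells TMEM126B (-0.25, adjusted p = 0.0137) and TMEM70 (-0.26, adjusted p = 0.015) fell.

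NDUFA4L2 and NDUFA4 are counted apart because NDUFA4 is now placed in complex IV, and NDUFA4L2 is its paralog, known as a target of the hypoxia-inducible factor. NDUFA4L2 had 21.23 and 25.68 FPKM in FDX1-OE cells in ES, 9.15 and 10.37 FPKM in FDX1-OE cells in DMSO, 17.78 and 16.05 FPKM in control cells in ES and 10.74 and 9.43 FPKM in control cells in DMSO. The groups fell into an order of FDX1-OE in ES, control in ES and then the DMSO groups, which overlapped each other. With ES it was 2.27 times higher in FDX1-OE cells (log2 change 1.18, SE 0.10, adjusted p = 6.34e-06) while in control cells the rise was 1.62 times (0.69, SE 0.10, adjusted p = 0.000558), under every alternative run. Its span overlaps SHMT2, a mitochondrial serine hydroxymethyltransferase, which changed by -0.091 (adjusted p = 0.11) in FDX1-OE cells and -0.10 (adjusted p = 0.0961) in control cells and did not pass. NDUFA4 had 74.39 and 78.72 FPKM in FDX1-OE cells in ES, 73.36 and 76.51 FPKM in FDX1-OE cells in DMSO, 72.98 and 66.67 FPKM in control cells in ES and 85.80 and 76.73 FPKM in control cells in DMSO. It overlapped in FDX1-OE cells (0.03, adjusted p = 0.723) and was lower in control cells (-0.22, adjusted p = 0.0282), which did not pass when control DMSO replicate 1 (adjusted p = 0.209) or ES replicate 2 (0.173) was left out.

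Under ES, FDX1-OE cells differed from control cells in few NDUF genes: 1 (2.1%) was higher and 4 (8.5%) were lower, beside 13.6% of all genes higher and 7.78% lower. RLE scaling gave 1 higher and 5 lower, beside 11.2% and 10.6% of all genes. NDUFA4L2 was higher in FDX1-OE cells (log2 difference 0.44, SE 0.10, adjusted p = 0.0113). NDUFAF2 (-0.38, SE 0.097, adjusted p = 0.021), NDUFV2 (-0.23, SE 0.064, adjusted p = 0.0297) and NDUFA11, a membrane-arm subunit (-0.21, SE 0.047, adjusted p = 0.0115), were lower. The fourth was NDUFS5, which lies on the intermembrane-space side. NDUFS5 had 207.83 and 224.91 FPKM in FDX1-OE cells in ES, 250.21 and 259.65 FPKM in control cells in ES, 237.43 and 232.02 FPKM in FDX1-OE cells in DMSO and 258.40 and 261.43 FPKM in control cells in DMSO. The FDX1-OE libraries lay below the control libraries in ES and in DMSO, and the difference was -0.24 (SE 0.051, adjusted p = 0.00986) in ES and -0.15 (adjusted p = 0.507) in DMSO.

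Each of these calls was lost in some fits with 1 library left out. The share of all genes called in those fits is not given, so the losses have no background here. Without control ES replicate 2 the adjusted p was 0.0935 for NDUFA4L2, 0.132 for NDUFAF2, 0.16 for NDUFV2, 0.0714 for NDUFA11 and 0.0766 for NDUFS5. Without FDX1-OE ES replicate 2 it was 0.078 for NDUFA4L2 and 0.0576 for NDUFA11, and without FDX1-OE ES replicate 1 it was 0.156 for NDUFAF2, 0.18 for NDUFV2 and 0.0789 for NDUFS5. NDUFV2 had 0.0509 without control ES replicate 1. The median difference was -0.012 over subunits and -0.06 over NDUFAF genes, 0.048 apart (SD 0.043 over replicate pairs). TMEM186 was lower among the factors with other names (-0.39).

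In DMSO 0 NDUF genes differed between FDX1-OE and control cells with limma, 7 of 47 had an unadjusted p below 0.05 beside 7.25% of all genes, and voom on the recovered reads also called 0. Over all genes 0.428% were higher and 0.0816% lower. The differences were small and mostly below 0. In FDX1-OE cells 43 of 47 members (91.5%) were lower, beside 49.7% of all genes. Among them were 36 of 37 subunits and 5 of 8 NDUFAF genes. The median was -0.072 over members against 0.001 over all genes. The lowest was -0.23, of NDUFA1 (adjusted p = 0.485). Control DMSO replicate 1 had the highest sum of NDUF levels of the 8 libraries, at 4304.5 FPKM. Without it 33 of 47 members lay below 0 and the median was -0.034, and without control DMSO replicate 2 these were 42 and -0.116. Without FDX1-OE DMSO replicate 1 they were 36 and -0.081, and without FDX1-OE DMSO replicate 2 they were 35 and -0.075. RLE scaling left both at 43 and -0.072. The subunit median minus the NDUFAF median was -0.067 (SD 0.025 over replicate pairs, which share libraries). That difference ran from -0.163 to -0.011 with 1 library left out, and it was not tested.

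The interaction sets the ES response of FDX1-OE cells against the ES response of control cells and was called for 0 NDUF genes with limma, beside 3.25% of all genes higher and 1.05% lower. With RLE scaling it was also 0, beside 2.56% and 1.57%. At an unadjusted p below 0.05 there were 12 of 47 members, beside 22.2% of all genes, which is near that background. The largest differences were 0.49 for NDUFA4L2 (SE 0.14, adjusted p = 0.0755), 0.45 for NDUFA2 (SE 0.11, adjusted p = 0.0539), 0.38 for NDUFA3 (SE 0.17, adjusted p = 0.223) and 0.35 for NDUFA1 (SE 0.11, adjusted p = 0.0938). NDUFA2 had 74.94 and 68.48 FPKM in FDX1-OE cells in ES, 68.86 and 60.68 FPKM in FDX1-OE cells in DMSO, 64.31 and 56.78 FPKM in control cells in ES and 77.51 and 71.79 FPKM in control cells in DMSO. ES and DMSO libraries overlapped in FDX1-OE cells and were apart in control cells. Voom called 1 member higher, NDUFA2, beside 314 of 9805 genes. Some fits with 1 library left out called NDUFA1, NDUFA2 or NDUFA3 higher. The median interaction was 0.073 over subunits and -0.069 over NDUFAF genes, a difference of 0.142 (SD 0.066 over replicate pairs).

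The spread of the 47 changes was widest for the ES responses and narrowest for FDX1-OE against control in DMSO. The interquartile range of the log2 changes was 0.286 (SD 0.032 over replicate pairs) for ES in FDX1-OE cells, 0.278 (SD 0.038) for ES in control cells, 0.198 (SD 0.075) for FDX1-OE against control in ES, and 0.08 (SD 0.039) for FDX1-OE against control in DMSO. Over all genes tested these were 0.444, 0.319, 0.243 and 0.111, each wider than the members' range, a difference that was not tested. Between the replicates of a group, the difference scaled to that of 2 means of 2 had an interquartile range of 0.103 in FDX1-OE cells in ES, 0.126 in FDX1-OE cells in DMSO, 0.13 in control cells in ES and 0.1 in control cells in DMSO. The ES responses thus spread over more than the replicates did, while the genotype difference in DMSO spread over less. With 1 library left out the range was 0.251 to 0.283 for ES in FDX1-OE cells, 0.224 to 0.34 for ES in control cells, 0.174 to 0.291 for FDX1-OE in ES and 0.071 to 0.151 for FDX1-OE in DMSO.

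**Figure D4:**
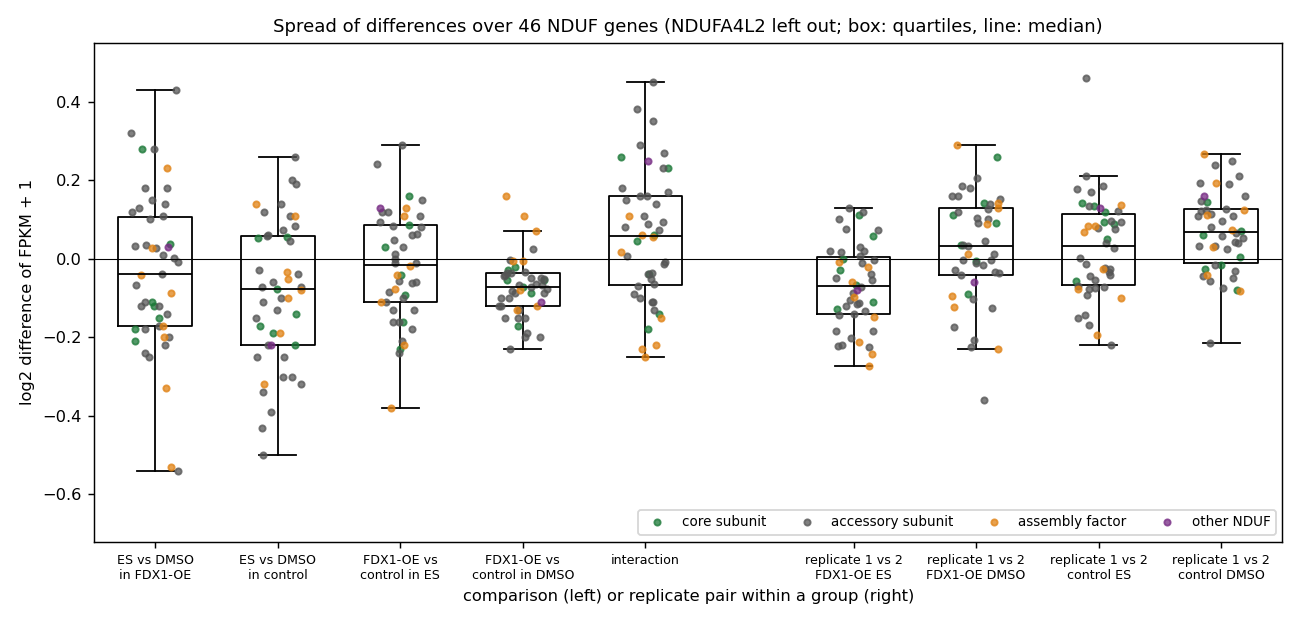
Log2 differences of FPKM + 1 for 46 NDUF genes (NDUFA4L2, at 1.18 and 0.69 under ES, left out) in the 5 comparisons and between the 2 replicates of each group; boxes are quartiles, lines medians and points genes coloured by class, and replicate differences are unscaled. Points spread widest under ES and lie mostly below 0 for FDX1-OE against control in DMSO.

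Shared reads limit some of these values. In RefSeq, 13 of the 47 members overlap another protein-coding gene and 22 have pseudogenes named after them, and neither the strand setting nor the counting of shared reads is stated in the sources read. Among the members named above, the overlapping pairs include NDUFA4L2 with SHMT2, NDUFA3 with TFPT, NDUFA2 with TMCO6 and NDUFB6 with SMIM27. They also include NDUFAF3 with DALRD3, NDUFAF7 with PRKD3 and NDUFAF6 with CCNE2 and TP53INP1. NDUFA5 overlaps ASB15, NDUFB11 overlaps RBM10 and NDUFS6 overlaps MRPL36. NDUFS5 has 7 named pseudogenes and NDUFAF4 has 4.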

How the data were processed

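RNA-seq libraries were made with the VAHTS Universal V6 kit, per the labels' protocols. Per the submitters' processing notes, the build was hg19 and the tools included HISAT2, HTSeq and R 3.2.0, whose parts in the work the sources do not state. The deposited values were taken as FPKM made by the authors, a unit read from the values. They fall in steps of 1 read, and 399 genes of low level fixed the library totals used for depth. With those totals, gene lengths were found that give whole reads within 0.02 read for 100% of the 15597 genes.

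Genes at 1 FPKM or more in 2 or more libraries were tested (9805, all 47 members among them) by limma (version 3.58.1, R 4.3.3) after taking log2(FPKM + 1), with 4 group means fitted to all 8 libraries, a mean trend and 4 residual and 6.62 prior degrees of freedom; tests were two-sided. The labels do not say that replicates were separate cultures, so p-values speak only to the spread among these libraries, which may be technical. The exact permutation test was left aside, since 2 libraries against 2 give p = 0.33 at best. Values per library are given for core subunits, the NDUFAF genes and, in each comparison, the 3 called rises and falls of largest size; others named were chosen after their values were seen; 1 member enters the counts but is not reported here. The members and lists were chosen with earlier results of these data known. The fits were tested on simulated data. Alternatives were pseudocounts of 0.1 and 5, no filter, a mean of at least 5 FPKM, RLE scaling, voom on recovered reads, no mean trend, a replicate block, the libraries of a comparison alone, and each library left out. Promoter sequences came from RefSeq (GRCh38.p14).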

Additional observations from a re-analysis of the deposited data

How the results depend on the processing

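No called gene changed direction under any alternative run. Of the alternative values of single genes, FDX1 counted among them, 438 kept their call and 111 lost it. Leaving out 1 library is what most often ended calls. In those fits 1 library stands for its group and is assumed to vary like the others. With ES in FDX1-OE cells 6 NDUF genes were higher and 11 lower. RLE scaling gave 3 higher and 20 lower, beside 27.6% of all genes in each direction. Voom gave 3 higher and 19 lower, beside 2821 and 2755 of 9805 genes. Without the filter 7 were lower. In control cells (2 higher, 14 lower) 1 was higher without the filter, with RLE scaling, with voom and without the mean trend, 5 were lower without the filter and 9 without the mean trend, and 1 to 2 were higher and 5 to 12 lower with 1 library left out. For FDX1-OE against control in ES (1 higher, 4 lower) 0 were higher and 2 lower without the filter. At a mean of at least 5 FPKM, with the replicate block and in the libraries of the comparison alone, 2 were higher. Voom gave 1 higher and 7 lower, beside 1299 and 1197 of 9805 genes. The interaction (0 and 0) had 1 higher with a pseudocount of 5, at a mean of at least 5 FPKM, with voom and with the replicate block, and 0 to 2 with 1 library left out. Leaving out a library and taking the libraries of a comparison alone use fewer samples and apply the filter anew. Both filter settings test other genes. The remaining settings use the same libraries and genes, and the cause was not tested. Without the mean trend NDUFA1, NDUFA4, NDUFB2, NDUFS3, NDUFS4 and NDUFS7 lost their call in control cells. Without the filter NDUFAF2, NDUFAF6, NDUFB1, NDUFB5, NDUFS8 and NDUFV3 lost their call for ES in FDX1-OE cells, NDUFA1, NDUFA2, NDUFA3, NDUFA4, NDUFAF4, NDUFB2, NDUFB6, NDUFS3, NDUFS4 and NDUFS7 in control cells, and NDUFA4L2, NDUFAF2 and NDUFV2 between genotypes in ES.

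Replicate numbers were not treated as pairs, because the labels give no shared batch and the correlations of same-numbered deviations ran between -0.18 and 0.181. With the replicate block 7 NDUF genes were higher and 11 lower with ES in FDX1-OE cells and 2 and 15 in control cells. The share of all genes called in that fit is not given.

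The subunit median minus the NDUFAF median was 0.076 with a pseudocount of 5 and 0.09 to 0.11 with 1 library left out for ES in FDX1-OE cells, -0.05 to -0.02 for ES in control cells, -0.005 to 0.09 for FDX1-OE against control in ES, -0.163 to -0.011 in DMSO and 0.105 to 0.179 for the interaction. The interquartile range of member changes was 0.242 with a pseudocount of 5 and 0.251 to 0.283 with 1 library left out for ES in FDX1-OE cells, and 0.224 to 0.34, 0.174 to 0.291, 0.071 to 0.151 and 0.205 to 0.319 for ES in control cells, FDX1-OE in ES, FDX1-OE in DMSO and the interaction. Depth does not limit members, whose lowest read count was 383; the 2 libraries per group do.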
